A study of Homo sapiens with 3 samples.

Results

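The control library of a study of HKR3, a zinc finger protein, and TERT, the catalytic subunit of telomerase, in Hep3B was described for its baseline expression. Hep3B cells come from a human hepatocellular carcinoma. The library is 1 of 3 RNA sequencing libraries, chosen by its label, and the other libraries are not described. The labels title it NT-Empty and give its treatment as Fugene, a transfection reagent. The labels do not say whether its cells also received an empty pcDNA3.1 vector, a non-targeting small interfering RNA or both. By the same labels, the cells were grown at 37°C in DMEM with 10% fetal bovine serum and got fresh medium 6 h after transfection, at 21% oxygen. The library thus stands for a transfected culture of a single line, and with 1 library no value has a spread between replicates.

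Hepatocytes make most of the proteins of blood plasma, and they handle glucose, lipids, ammonia, bile acids and drugs. This programme is set up by a network of liver-enriched transcription factors, among them HNF4A, the FOXA proteins and CEBPA. Hepatoma lines keep parts of it, divide without stop and often re-express genes of fetal liver, of which AFP, the fetal counterpart of albumin, is the best known.

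Levels are given as FPKM, fragments per kilobase of transcript scaled to library size, so genes of the same library can be set beside each other. Markers of a hepatocyte-like tumour were read first, and they cannot tell the named line from other hepatoma lines. ALB, encoding albumin, was at 3317 FPKM and ranked 12 of 19863 genes. APOA1, the chief apolipoprotein of high-density particles, was at 1461 FPKM and ranked 57. AFP, alpha-fetoprotein, was at 4055 FPKM and ranked 5. All 3 markers of a hepatocyte-like tumour were thus among the highest genes of the library.

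A tumour suppressor gene was set beside what is known of the named line, which is often described as lacking functional Rb protein. RB1 was listed at 15.3 FPKM, rank 4906, with a 95% counting interval from 12.5 to 18.6 FPKM. Of the 31-base units of its transcripts 0% occur in another gene. A value per gene does not show which exons the fragments covered or whether a protein was made, and the identity of the cells was not tested beyond these levels. EPO, the erythropoietin gene for whose control by oxygen Hep3B is a classical model, was at 1.03 FPKM with an interval from 0.565 to 1.72 FPKM.

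The table does not give the depth of the library. It was estimated at 10400000 fragments, from the lowest steps between the values of weakly expressed genes. At that depth a transcript of 2000 bases at 1 FPKM stands for 20.8 fragments, with a 95% counting interval from 0.618 to 1.53 FPKM. A minimum of 1 FPKM was used to count a gene as present, and 10868 of 19863 genes, or 54.7%, reached it. At least 10 FPKM was reached by 31.2% of genes and at least 100 FPKM by 4.8%. The median over all genes was 2.07 FPKM. At the other end 5974 genes, or 30.1%, were listed at 0. The 13 protein genes of the mitochondrial genome, which every such cell uses, were also listed at 0, so a 0 in this table is not read as absence.

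**Figure D1:**
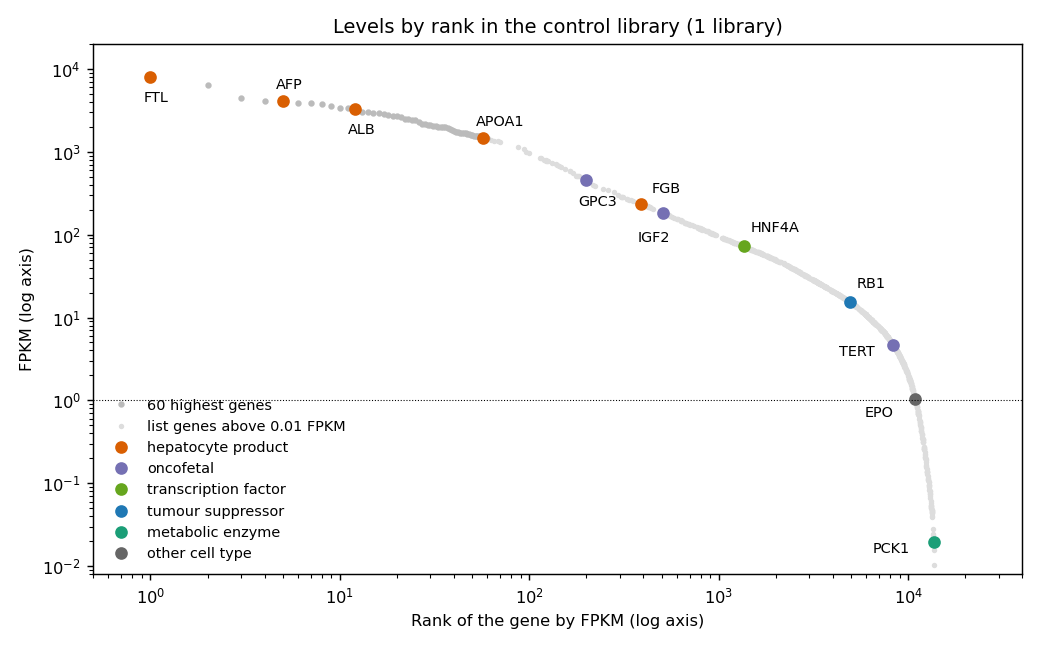
FPKM of the genes of the control library (vertical, log axis) against their rank (horizontal, log axis), with named genes coloured by group; grey points are the 60 highest genes and all list genes above 0.01 FPKM. AFP and ALB stand within the 12 highest genes, while PCK1, an enzyme of adult liver, stands under 1 FPKM (dotted line).

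The highest genes were those of iron storage, the ribosome, glycolysis and plasma proteins. FTL, the ferritin light chain that stores iron, was the highest gene of all at 8066 FPKM. FTH1, the ferritin heavy chain, was at 3418 FPKM and ranked 10. Of the 30 highest genes, 21 encode proteins of the cytosolic ribosome, led by RPS27 at 6435 FPKM and RPL37A at 4499 FPKM. The other 9 were FTL, FTH1, AFP, ALB, APOA2, the glycolytic enzyme gene GAPDH, the elongation factor gene EEF1A1, the actin gene ACTB and the cyclophilin gene PPIA. GAPDH was at 4125 FPKM, EEF1A1 at 3845 FPKM, ACTB at 3059 FPKM and PPIA at 2455 FPKM. So 3 of the 9 were secreted liver proteins.

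The level was concentrated in few genes. The 50 highest genes took 22.6% of the FPKM sum of 596536, and 298 genes took 50% of it. The 88 ribosomal protein genes together took 23.7%, and 81 of them reached 100 FPKM. Below the 30 highest, the next genes outside the ribosome included GSTP1, a glutathione transferase, at 1973 FPKM, the scaffold protein gene RACK1 at 1855 FPKM and ALDH1A1, which oxidizes retinal to retinoic acid, at 1752 FPKM. PRDX1, a peroxide-removing enzyme, was at 1449 FPKM, and ID1, an inhibitor of basic helix-loop-helix factors, at 1359 FPKM.

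**Figure D2:**
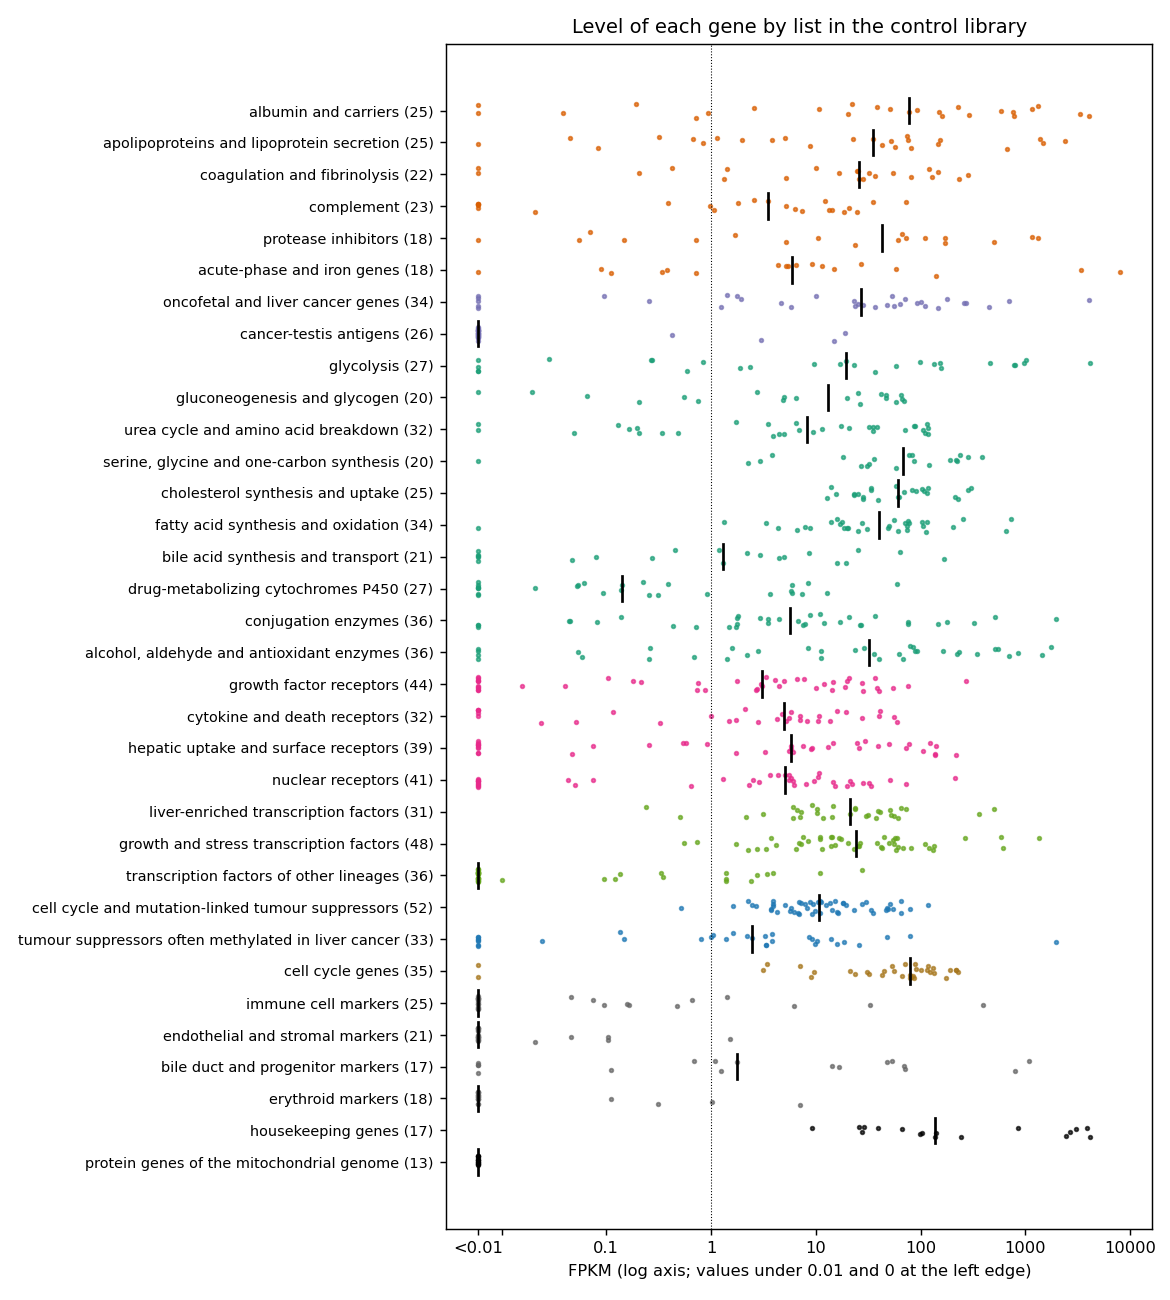
FPKM of each gene (horizontal, log axis, 1 point per gene) by gene list (vertical, number of genes in the table in brackets), with black bars for the median of a list and a dotted line at 1 FPKM. Carriers, cholesterol enzymes, liver-enriched factors and cell cycle genes lie mostly to the right of the line, and cytochromes P450, factors of other lineages and markers of blood, vessel and connective tissue cells mostly to its left.

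Hepatocyte products, most of them secreted, ranged from the highest genes of the table to genes listed at 0. Of 130 such genes in 6 lists, 95 reached 1 FPKM, where 54.7% of all genes did. Together they took 5.96% of the FPKM sum, less than the 23.7% of the ribosomal protein genes, and 4.04% without the ferritin genes FTL and FTH1.

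Among albumin and other carriers, 19 of 25 genes reached 1 FPKM and 11 reached 100 FPKM, where 54.7% and 4.8% of all genes did. The list median was 76.7 FPKM. AFP exceeded ALB by a factor of 1.22, and the counting intervals, from 4027 to 4083 FPKM and from 3288 to 3347 FPKM, did not overlap. RBP4, which carries retinol, was at 1319 FPKM. AMBP, the precursor of alpha-1-microglobulin and bikunin, was at 1148 FPKM. TF, the iron carrier transferrin, was at 781 FPKM, and VTN, the adhesion protein vitronectin, at 764 FPKM. TTR, transthyretin, carries thyroid hormone and retinol-binding protein in adult plasma and was at 149 FPKM, well under RBP4. The members under 1 FPKM were A1BG at 0.940 FPKM, FETUB at 0.725 FPKM, TTPA, which transfers vitamin E, at 0.192 FPKM, and HRG at 0.0386 FPKM. SHBG, which carries sex hormones, and APCS, serum amyloid P, were listed at 0.

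Apolipoproteins split in the same way. APOA2 was the highest at 2388 FPKM, ahead of APOA1 and of APOE, the ligand for remnant uptake, at 1389 FPKM. APOC1 was at 672 FPKM. APOB, the structural protein of very low-density lipoprotein, was at 154 FPKM, and APOH, which binds phospholipids, at 148 FPKM. Genes of triglyceride control were low: APOA5 was at 0.836 FPKM, APOA4 at 0.679 FPKM and APOC4, with 83.0% of its units in another gene, at 0.318 FPKM. APOL1, LPA, which encodes apolipoprotein(a), and APOF were at 0.0838 FPKM, at 0.0450 FPKM and listed at 0. In all, 19 of 25 genes of this list reached 1 FPKM, where 54.7% of all genes did. The median of the list was 35.2 FPKM.

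Of 22 coagulation and fibrinolysis genes, 18 reached 1 FPKM, where 54.7% of all genes did, and the list median was 25.6 FPKM. F2, prothrombin, was at 286 FPKM. The chains of fibrinogen, which are assembled together, were at 234 FPKM for FGB, 148 FPKM for FGG and 128 FPKM for FGA, so they lay within a factor of 2 of each other. SERPINF2, the plasmin inhibitor, was at 119 FPKM and PROS1, protein S, at 81.2 FPKM. KLKB1, prekallikrein, was at 0.207 FPKM. F9, coagulation factor IX, and PROZ were listed at 0.

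Complement genes were lower, with a median of 3.51 FPKM, where all genes had 2.07 FPKM. Of 23 genes, 15 reached 1 FPKM and 0 reached 100 FPKM, where 54.7% and 4.8% of all genes did. C3, the central component, was at 72.0 FPKM. CFI, which cleaves C3b, was at 35.3 FPKM, C4BPA at 24.6 FPKM and MASP1, a protease of the lectin pathway, at 20.8 FPKM. C9, MASP2, CFHR2, C4A and C4B were listed at 0. C4A and C4B are near-identical copies, with 95.5% and 94.3% of their units in another gene, so their values are uncertain.

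Protease inhibitors were led by SERPINA1, alpha-1-antitrypsin, at 1334 FPKM, followed by AMBP, given above, and by CST3, cystatin C, at 506 FPKM. SERPINF1 was at 172 FPKM and ITIH2 at 171 FPKM. The heavy chains ITIH3 and ITIH4 were at 0.0696 and 0.0544 FPKM, and 69.1% of the units of ITIH4 occur in another gene. TIMP1, an inhibitor of matrix metalloproteinases, was listed at 0, and its relative TIMP2 was at 0.711 FPKM. Of 18 acute-phase and iron genes, 12 reached 1 FPKM, where 54.7% of all genes did. Beside ferritin, TFRC, the transferrin receptor, was at 139 FPKM and SLC40A1, the iron exporter ferroportin, at 58.4 FPKM. HAMP, the iron hormone hepcidin that closes ferroportin, was listed at 0, and its regulators differed: TFR2 and HFE were at 9.13 and 4.35 FPKM, and HJV, TMPRSS6 and BMP6 at 0.716, 0.338 and 0.111 FPKM. CRP, C-reactive protein, was at 0.0899 FPKM and LBP at 0.380 FPKM, while SAA4, the constitutive serum amyloid A, was at 26.8 FPKM, with 64.4% of its units in another gene.

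The promoters of the hepatocyte products differed in sequence from those of most expressed genes. The windows from 250 bases before to 50 bases after the start of transcription were taken from RefSeq (GRCh38.p14), and 15128 matched a gene of the table by symbol. The letters GTTAAT are a core motif of homeobox factors in liver promoters. This core, on either strand, was in 17 of 70 windows of hepatocyte products at 1 FPKM or more, or 24.3%. It was in 795 of all 15128 windows, or 5.26%, and in 2 of the 22 windows of hepatocyte products under 1 FPKM. Among genes at 100 FPKM or more it was in 2.81% of windows, and among genes listed at 0 in 8.47%. The FOXA core TGTTTAC was in 10% of the expressed hepatocyte products and in 2.60% of all windows, and the GC box GGGCGG in 30% and 59.4%. These are letter matches and not binding sites, and they may overlap other motifs.

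The windows of the pair of highest plasma proteins, of a fibrinogen gene and of an apolipoprotein gene are printed with this core in capitals. Only such windows were searched, so every match lies within 250 bases before to 50 bases after the start by construction. The window of FTL, the highest gene, is printed for contrast with its GC boxes in capitals. All run 5′ to 3′ along the gene.
AFP (chr4:73435971-73436270, GRCh38.p14, + strand): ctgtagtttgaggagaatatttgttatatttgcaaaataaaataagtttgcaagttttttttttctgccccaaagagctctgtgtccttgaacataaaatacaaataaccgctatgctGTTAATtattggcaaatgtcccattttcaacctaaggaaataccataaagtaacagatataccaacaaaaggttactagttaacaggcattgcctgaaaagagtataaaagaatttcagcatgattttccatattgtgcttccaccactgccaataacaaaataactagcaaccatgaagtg
ALB (chr4:73404037-73404336, GRCh38.p14, + strand): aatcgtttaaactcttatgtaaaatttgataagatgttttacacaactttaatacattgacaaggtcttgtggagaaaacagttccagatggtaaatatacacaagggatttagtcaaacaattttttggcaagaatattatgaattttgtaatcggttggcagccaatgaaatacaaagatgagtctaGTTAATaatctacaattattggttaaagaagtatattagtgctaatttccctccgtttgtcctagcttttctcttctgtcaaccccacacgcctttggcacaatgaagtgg
FGB (chr4:154562730-154563029, GRCh38.p14, + strand): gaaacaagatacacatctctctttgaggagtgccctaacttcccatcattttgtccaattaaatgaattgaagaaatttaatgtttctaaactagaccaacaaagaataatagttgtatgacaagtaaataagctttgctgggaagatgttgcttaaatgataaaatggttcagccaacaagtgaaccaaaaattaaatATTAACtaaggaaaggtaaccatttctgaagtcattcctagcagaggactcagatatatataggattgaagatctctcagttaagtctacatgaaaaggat
APOH (chr17:66229366-66229665, GRCh38.p14, - strand): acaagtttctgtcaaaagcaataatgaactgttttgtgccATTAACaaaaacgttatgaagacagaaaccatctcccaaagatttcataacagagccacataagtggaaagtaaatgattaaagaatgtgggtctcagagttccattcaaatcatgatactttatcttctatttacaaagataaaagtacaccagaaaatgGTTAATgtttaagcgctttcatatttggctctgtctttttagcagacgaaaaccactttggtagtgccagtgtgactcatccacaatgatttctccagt
FTL (chr19:48965059-48965358, GRCh38.p14, + strand): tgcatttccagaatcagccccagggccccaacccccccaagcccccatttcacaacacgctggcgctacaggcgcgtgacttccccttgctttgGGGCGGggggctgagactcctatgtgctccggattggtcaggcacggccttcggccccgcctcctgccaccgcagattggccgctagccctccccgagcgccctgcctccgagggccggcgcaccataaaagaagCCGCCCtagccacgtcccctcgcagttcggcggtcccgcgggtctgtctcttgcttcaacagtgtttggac

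In ALB the core began 61 bases before the start of transcription, in FGB, read on the other strand, 51 bases before it, and in AFP 132 bases before it. APOH held 2 matches, beginning 49 and 210 bases before the start. The GC content of these windows was 33% in AFP, 33.3% in ALB, 32.7% in FGB and 35% in APOH, and 66.3% in FTL. These windows were picked for their motifs: the median GC content was 55% over the 70 windows of expressed hepatocyte products and 63% over all windows. The ratio of observed to expected CpG had a median of 0.270 in the expressed hepatocyte products, 0.343 in genes listed at 0 and 0.873 in genes at 100 FPKM or more. In hepatocyte products under 1 FPKM the median ratio was 0.280, close to that of the expressed ones. The median of the expressed hepatocyte products thus lay nearer to that of genes listed at 0 than to that of highly expressed genes. The other genes with the core included F2, FGA, LIPC, CFI, PROC, PLG and SERPINA6.

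**Figure D3:**
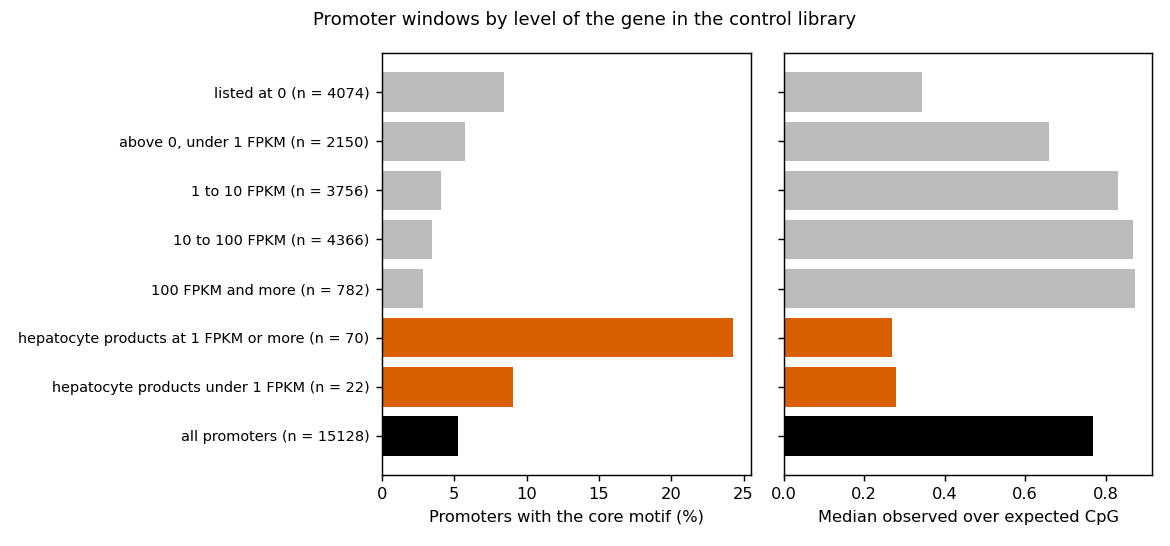
Share of promoter windows with the GTTAAT core (left, percent) and median ratio of observed to expected CpG (right) by the level of the gene, with hepatocyte products in orange and all windows in black. The share is 24.3% in the 70 expressed hepatocyte products and 5.26% in all windows, and the CpG ratio is 0.270 and 0.770.

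Genes of fetal liver and of liver cancer were present widely. Of 34 such genes in the table, 27 reached 1 FPKM and 9 reached 100 FPKM, where 54.7% and 4.8% of all genes did. The list median was 26.9 FPKM, where all genes had 2.07 FPKM. After AFP, MDK, the heparin-binding growth factor midkine, was at 702 FPKM. GPC3, a cell-surface proteoglycan used as a marker of hepatocellular carcinoma, was at 452 FPKM. HMGA1, an architectural chromatin protein, was at 271 FPKM, and TSPAN8, a tetraspanin, at 260 FPKM. IGF2, a fetal growth factor, was at 180 FPKM, but 72.7% of its units occur in another gene, so its value is uncertain.

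RNA-binding proteins of fetal cells differed among themselves. LIN28B, which blocks the maturation of let-7 microRNAs, was at 28.5 FPKM, while its relative LIN28A was listed at 0. HMGA2, a known let-7 target, was at 91.5 FPKM. The RNA-binding proteins IGF2BP1, IGF2BP2 and IGF2BP3 were at 62.9, 23.9 and 23.2 FPKM. TERT, the catalytic subunit of telomerase, was at 4.69 FPKM, with a counting interval from 3.98 to 5.48 FPKM. FGF19, a bile acid hormone of the gut that some liver tumours make, was at 9.97 FPKM, next to its receptor FGFR4 and coreceptor KLB described below. The pluripotency genes NANOG and POU5F1, the imprinted PEG3 and XAGE1B were listed at 0, DLK1, a marker of fetal hepatoblasts, was at 0.0944 FPKM, and CYP3A7, the fetal cytochrome P450, at 0.256 FPKM. So the oncofetal genes were not on as a block. H19 and CD24 were not analysed here.

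Cancer-testis antigens, which are normally limited to germ cells, were mostly listed at 0: 3 of 26 reached 1 FPKM and 22 were listed at 0. Over all genes 54.7% reached 1 FPKM and 30.1% were listed at 0. The 3 were CT83 at 18.8 FPKM, PRAME, a repressor of retinoic acid receptors, at 14.8 FPKM, and TEX19 at 3.004 FPKM. Several of these genes are near copies of each other, so their values are uncertain.

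Genes of sterol, fatty acid and serine synthesis were high, and most drug-metabolizing cytochromes P450 were low. Bile acid genes reached 1 FPKM about as often as all genes, and genes of amino acid breakdown were uneven. All 25 genes of cholesterol synthesis and uptake reached 10 FPKM, with a median of 61.5 FPKM, where 31.2% of all genes reached that level. HMGCS1, which makes HMG-CoA, was at 304 FPKM, and FDPS, which makes farnesyl diphosphate, at 229 FPKM. The sterol isomerase gene EBP was at 213 FPKM. Of 34 genes of fatty acid synthesis and oxidation, 33 reached 1 FPKM, where 54.7% of all genes did. FABP1, the fatty acid carrier of hepatocytes, was at 730 FPKM, SCD, a desaturase, at 655 FPKM and FADS2 at 254 FPKM. FASN, the fatty acid synthase, was at 116 FPKM and ACLY, which makes cytosolic acetyl-CoA, at 113 FPKM. The exception was ACADL, listed at 0.

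Genes of serine, glycine and 1-carbon synthesis were mostly high too. Of 20 genes, 19 reached 1 FPKM and 16 reached 10 FPKM, where 54.7% and 31.2% of all genes did. The list median was 67.6 FPKM. PSAT1 and PHGDH, enzymes of serine synthesis, were at 386 and 236 FPKM. SHMT2, which passes the carbon of serine to folate in mitochondria, was at 223 FPKM, TYMS, which makes thymidylate, at 220 FPKM, and PYCR1, of proline synthesis, at 192 FPKM. AHCY was at 285 FPKM. GNMT, an adult liver enzyme that uses up surplus S-adenosylmethionine, was listed at 0.

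The urea cycle and amino acid breakdown were uneven. ASL, argininosuccinate lyase, was at 104 FPKM, while CPS1, the entry enzyme of the cycle and abundant in adult hepatocyte mitochondria, was at 4.43 FPKM, OTC at 6.95 FPKM and ARG1, arginase 1, at 3.94 FPKM. GLUL, glutamine synthetase, was at 109 FPKM, GLUD1, glutamate dehydrogenase, at 118 FPKM and GOT1 at 89.3 FPKM. The enzymes of tyrosine and tryptophan breakdown TAT, HPD and TDO2 were at 0.480, 0.0497 and 0.204 FPKM. AGXT and BHMT were at 0.164 and 0.196 FPKM, and SDS and KMO were listed at 0. In all, 23 of 32 genes reached 1 FPKM, where 54.7% of all genes did. The list median was 8.15 FPKM, where all genes had 2.07 FPKM.

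Bile acid and drug genes were the lowest of the metabolic lists. Of 21 bile acid genes, 12 reached 1 FPKM, close to the 54.7% of all genes, with a median of 1.29 FPKM. SCP2, a sterol carrier, was at 166 FPKM. SLC51B, a subunit of the basolateral exporter, was at 64.2 FPKM, and ABCC2, a canalicular transporter, at 25.4 FPKM. CYP7A1, the rate-limiting enzyme of bile acid synthesis, CYP8B1, the sterol exporters ABCG5 and ABCG8, and SLC10A1, the bile acid importer NTCP that is also the receptor of hepatitis B virus, were listed at 0. ABCB11, the bile salt export pump, was at 0.0805 FPKM. Of 27 drug-metabolizing cytochromes P450 and their reductase, 8 reached 1 FPKM, or fewer than the 54.7% of all genes, and the median was 0.140 FPKM. The reductase POR was at 59.6 FPKM, but the highest P450, CYP4F12, was at 12.8 FPKM, followed by CYP1A1, an enzyme induced through the aryl hydrocarbon receptor, at 8.41 FPKM. CYP3A4 and CYP1A2, main drug oxidases of adult liver, were listed at 0, and CYP2E1, which oxidizes ethanol, was at 0.0533 FPKM.

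Of the conjugation enzymes 27 of 36 reached 1 FPKM, where 54.7% of all genes did. MGST1, a membrane-bound glutathione transferase, was at 516 FPKM, GSTO1 at 323 FPKM and GSTA1, the class typical of hepatocytes, at 178 FPKM. UGT2B15 and UGT2B10, which attach glucuronic acid, were at 0.0440 and 0.0452 FPKM. Among alcohol, aldehyde and antioxidant enzymes, 27 of 36 reached 1 FPKM and 10 reached 100 FPKM, a level that 4.8% of all genes reached. After ALDH1A1 and PRDX1, GPX1, a glutathione peroxidase, was at 846 FPKM, NQO1, a quinone reductase driven by NRF2, at 695 FPKM, GPX4 at 552 FPKM and the thioredoxin gene TXN at 508 FPKM. The alcohol dehydrogenases of adult liver ADH1A, ADH1B and ADH4 were at 0.0584, 0.0536 and 0.262 FPKM.

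Glycolysis was high at nearly every step. Of 27 genes, 9 reached 100 FPKM, where 4.8% of all genes did. After GAPDH, TPI1 was at 1004 FPKM, ENO1, enolase 1, at 979 FPKM, ALDOA, aldolase A, at 789 FPKM, LDHA, lactate dehydrogenase A, at 783 FPKM and PKM, pyruvate kinase M, at 456 FPKM. LDHB, the other common lactate dehydrogenase chain, was at 0.269 FPKM, which is near the 0.221 FPKM that 3 fragments would give. HK1, the hexokinase of most tissues, was listed at 0. The enzymes that return glucose to the blood were low: G6PC1, glucose-6-phosphatase, was at 0.206 FPKM, PCK1 at 0.0196 FPKM and FBP1 at 0.743 FPKM. Glycogen genes were present, with PGM1 at 66.1 FPKM, UGP2 at 64.5 FPKM and GYG2, a glycogenin, at 58.5 FPKM.

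Many enzymes and receptors exist as a form typical of adult liver and as forms of fetal liver or other tissues. The share of the adult form was calculated in 12 families with at least 1 FPKM in sum. Another form was higher in 8 of them and the adult form in 4. PKLR, the liver pyruvate kinase, was at 0.594 FPKM and held 0.130% of its family. PCK1 held 0.0280% beside the mitochondrial PCK2 at 70.0 FPKM. GYS2, the liver glycogen synthase, was at 0.555 FPKM and held 2.08% beside GYS1 at 26.1 FPKM, with 87.5% of its units in another gene. In these 3 families the adult enzyme was under 1 FPKM while another form was above 10 FPKM.

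Other families were mixed. MAT1A, the adult methionine adenosyltransferase, was at 6.40 FPKM and held 5.26% beside MAT2A at 115 FPKM. GSTA1 held 8.27% beside GSTP1. SLC2A2, the glucose transporter of liver, was at 17.1 FPKM and held 42.5% beside SLC2A1 at 23.1 FPKM. ARG1 held 44.2% beside ARG2 at 4.97 FPKM, with a counting interval from 35.9% to 53.2%, so these did not differ beyond this interval. The interval leaves out the difference in length between these genes and may be too narrow. The adult form led in glycogen phosphorylase, with PYGL at 47.2 FPKM and a share of 70.5%, and in phosphofructokinase, with PFKL at 58.3 FPKM and a share of 61.2%. It also led for FGFR4 and INSR.

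**Figure D4:**
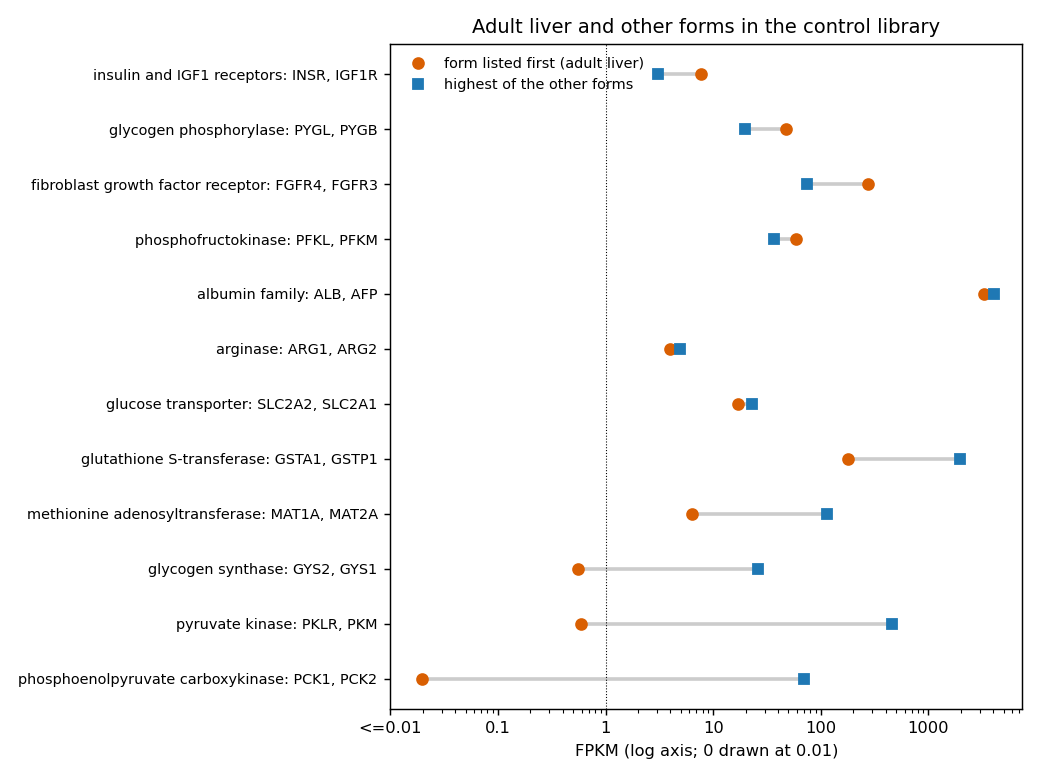
FPKM (horizontal, log axis, values under 0.01 drawn at 0.01) of the adult liver form (orange circles) and of the highest other form (blue squares) in 12 families, sorted by the adult share. The adult form lies to the left in 8 families, with wide distances for PCK1 and PKLR, and to the right in 4, among them PYGL and FGFR4.

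Growth factor receptors were led by FGFR4, the main fibroblast growth factor receptor of hepatocytes, at 273 FPKM, which held 70.4% of its family. FGFR3 was at 75.3 FPKM, FGFR1 at 27.4 FPKM and FGFR2 at 11.9 FPKM. TGFBR2, a receptor of transforming growth factor beta, was at 54.2 FPKM. The EGF receptor family members ERBB2 and ERBB3 were at 39.9 and 38.3 FPKM, and ERBB4 at 0.0156 FPKM. The ephrin receptor EPHB4 was at 36.7 FPKM. INSR, the insulin receptor, was at 7.74 FPKM, above IGF1R at 3.07 FPKM. KLB, beta-klotho, which pairs with FGFR4 to bind FGF19, was at 19.8 FPKM, and EGFR and MET, receptors of mitogens of hepatocytes, were at 20.7 and 14.2 FPKM. GHR, the growth hormone receptor, was at 0.742 FPKM, AXL at 0.0406 FPKM, and KDR, FLT1, KIT, RET and ALK were among 10 genes listed at 0. Of 44 genes, 26 reached 1 FPKM, or about as many as among all genes.

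Among receptors of cytokines and death ligands, FAS was listed at 0, TNFRSF1A, the receptor 1 of tumour necrosis factor, was at 59.0 FPKM, LTBR, the lymphotoxin receptor, at 55.7 FPKM and TNFRSF10B, a receptor of TRAIL, at 39.8 FPKM. IL13RA1 was at 40.8 FPKM, and IFNGR1, of the interferon gamma receptor, at 27.5 FPKM. TLR4, TNFRSF1B, ACKR3 and CCR7 were listed at 0. Of 32 genes, 22 reached 1 FPKM, where 54.7% of all genes did. On the hepatocyte surface, ASGR2 and ASGR1, the chains of the asialoglycoprotein receptor, were at 216 and 77.0 FPKM. SCARB1, which takes up cholesterol from high-density lipoprotein, was at 122 FPKM, CLDN1, a tight junction protein, at 139 FPKM and CD81 at 105 FPKM. B2M, the light chain of HLA class I, was at 138 FPKM, while the heavy chains HLA-C and HLA-B were at 8.90 and 0.571 FPKM, and CD274, PD-L1, was listed at 0. CD47 was at 0.258 FPKM and GCGR, the glucagon receptor, was listed at 0.

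Among 41 nuclear receptors, 27 reached 1 FPKM, where 54.7% of all genes did, with a median of 5.03 FPKM. NR2F6 was the highest at 214 FPKM. HNF4A, a central liver factor, was at 72.1 FPKM, NR1H4, the bile acid receptor FXR, at 50.6 FPKM, and the oxysterol receptors NR1H2 and NR1H3 at 33.4 and 28.4 FPKM. Of the drug sensors that drive P450 genes, NR1I2, or PXR, was at 0.649 FPKM and NR1I3, or CAR, was listed at 0. The oestrogen and progesterone receptor genes ESR1, ESR2 and PGR were listed at 0.

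Liver-enriched transcription factors were nearly all present: 29 of 31 reached 1 FPKM and 21 reached 10 FPKM, where 54.7% and 31.2% of all genes did. XBP1, a factor of the secretory pathway, was at 507 FPKM, and CEBPA at 358 FPKM. HHEX, a homeobox factor of the liver bud, was at 65.5 FPKM, CEBPB at 61.3 FPKM and FOXA1, a pioneer factor, at 55.5 FPKM. The 2 members under 1 FPKM were NFIB at 0.509 FPKM and ZBTB20, with 47.4% of its units in another gene, at 0.239 FPKM. Factors of other lineages were mostly at 0, with 9 of 36 at 1 FPKM or more and 21 listed at 0. CDX2, a homeobox factor of the intestine, was the highest at 27.7 FPKM, with a counting interval from 26.1 to 29.3 FPKM. SNAI1, a repressor of epithelial genes, was at 10.95 FPKM, GATA2 at 3.89 FPKM and LHX2 at 3.44 FPKM, and ZEB2, SNAI2 and TWIST1 were listed at 0.

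Factors of growth and stress reached 1 FPKM in 46 of 48 cases, where 54.7% of all genes did. After ID1, YBX1 was at 615 FPKM, ATF4, the factor of the integrated stress response, at 580 FPKM, CTNNB1, beta-catenin, at 263 FPKM, NFE2L2, or NRF2, at 135 FPKM and ID2 at 130 FPKM. MYC and MYCN, both drivers of growth, were at 57.4 and 50.2 FPKM. LEF1, a partner of beta-catenin, was at 0.736 FPKM and E2F7 at 0.552 FPKM.

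Tumour suppressor genes of the cell cycle and of recurrent mutation were almost all transcribed. Of 52 genes, 51 reached 1 FPKM, where 54.7% of all genes did, and the median was 10.7 FPKM. RPS6KA3, the kinase RSK2, was the highest at 119 FPKM. CDKN2A, which encodes p16 and p14ARF, was at 78.5 FPKM. Among the chromatin genes, SMARCB1 was at 64.5 FPKM, SMARCA4 at 46.7 FPKM, BAP1 at 19.5 FPKM, ARID1A at 10.9 FPKM and ARID2 at 3.76 FPKM. KEAP1, which marks NRF2 for breakdown, was at 48.6 FPKM. Of the destruction complex of beta-catenin, AXIN1 was at 9.86 FPKM and APC at 2.46 FPKM. AXIN2, a feedback target of beta-catenin, was the 1 gene of the list under 1 FPKM, at 0.512 FPKM. TSC1 and TSC2, which restrain the growth kinase mTOR, were at 5.12 and 9.28 FPKM. Of the kinase inhibitors, CDKN1B was at 27.4 FPKM, CDKN1A, or p21, at 15.8 FPKM, CDKN1C at 6.70 FPKM and CDKN2B at 4.24 FPKM. The relatives of RB1, RBL2 and RBL1, were at 11.1 and 3.94 FPKM, under RB1 itself.

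Genes often silenced by methylation in liver cancer reached 1 FPKM in 21 of 33 cases, with a median of 2.46 FPKM, near the 54.7% and 2.07 FPKM of all genes. GSTP1, which is often methylated in this cancer, was far above the others at 1973 FPKM. CDH1, E-cadherin, was at 47.3 FPKM, TIMP3 at 25.7 FPKM, MGMT, which repairs alkylated guanine, at 18.5 FPKM, SOCS1, an inhibitor of JAK kinases, at 15.9 FPKM, and RASSF1 at 14.0 FPKM. The Wnt antagonists SFRP1, SFRP2 and SFRP4, the hedgehog inhibitor HHIP, the inflammasome adaptor PYCARD, HIC1 and CCND2 were listed at 0. SFRP5, TFPI2 and PTGS2 were at 0.135, 0.148 and 0.0241 FPKM. No methylation was measured.

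**Figure D5:**
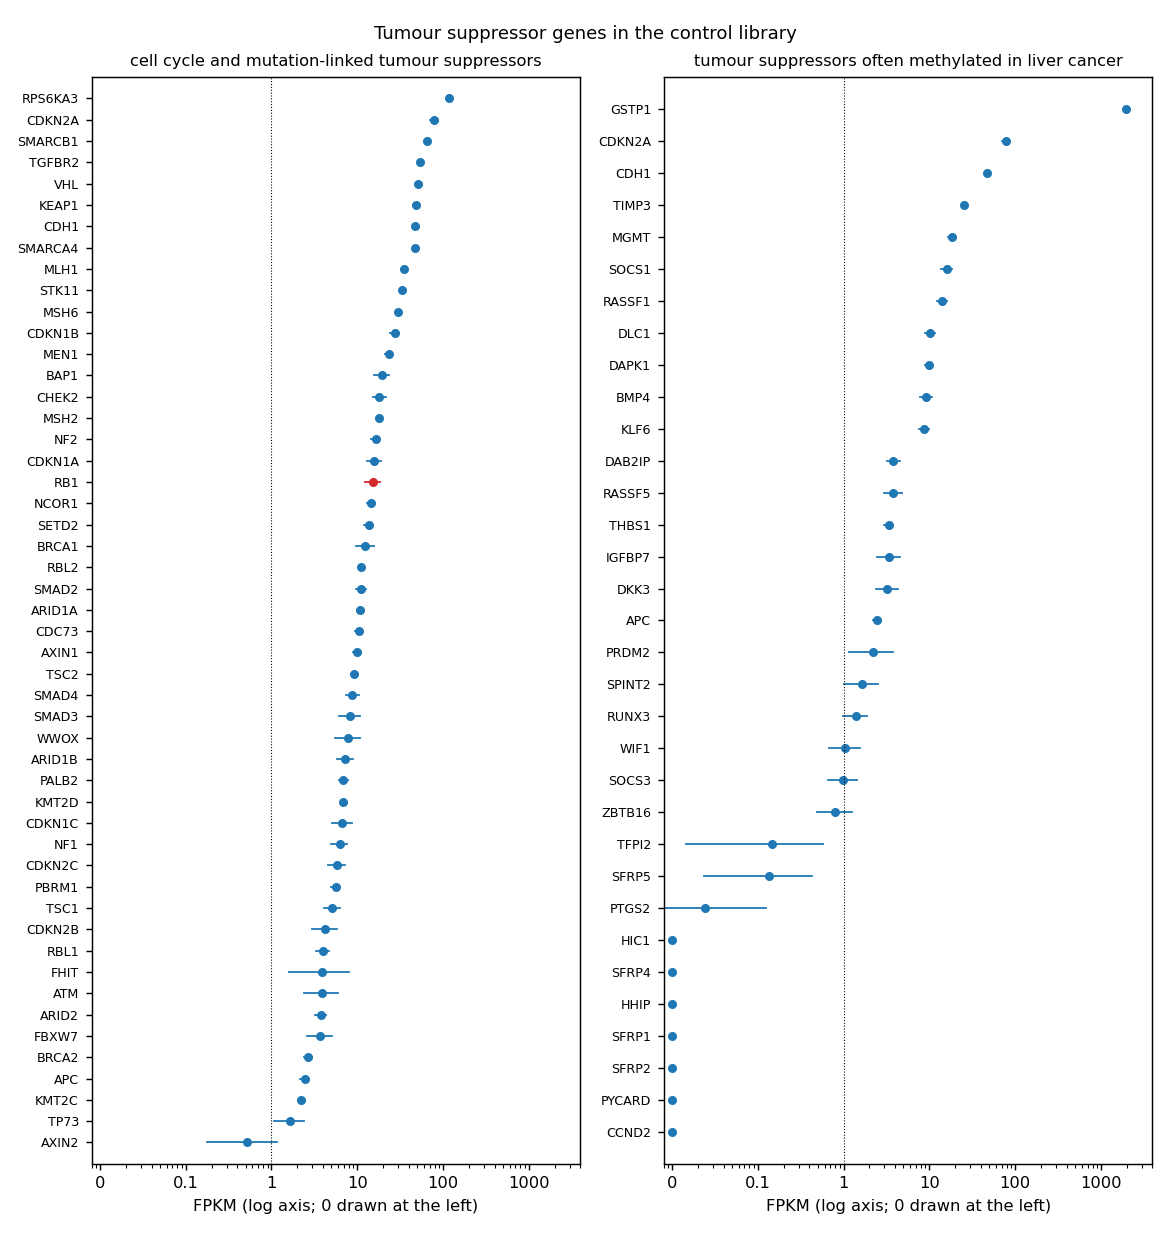
FPKM (horizontal, log axis) of 50 of the 52 tumour suppressor genes of the cell cycle and of recurrent mutation (left) and of those often methylated (right) in the control library, with lines for the 95% counting interval from estimated fragments and RB1 in red. RB1 lies at 15.3 FPKM on the left, and on the right GSTP1 lies at 1973 FPKM and 7 genes are at 0 (left edge).

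Cell cycle genes were high, with 33 of 35 at 1 FPKM or more, where 54.7% of all genes were. The list median was 79.3 FPKM. MCM7, of the replicative helicase, was at 226 FPKM, UBE2C, of the anaphase-promoting system, at 218 FPKM and PCNA, the clamp of DNA polymerases, at 191 FPKM. CDK4 was at 177 FPKM, and CCNB1, cyclin B1, at 133 FPKM. CCND2 and CCNA1, cyclins of other tissues, were listed at 0, and CCND1, cyclin D1, was at 81.8 FPKM.

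Markers of other cell types were examined last. Their counts stand beside 54.7% of all genes at 1 FPKM or more and 30.1% listed at 0. Of 21 endothelial and stromal markers, 1 reached 1 FPKM, RGS5 at 1.52 FPKM, and 16 were listed at 0, among them VWF, CDH5, COL3A1 and DCN. Of 25 immune markers, 4 reached 1 FPKM and the pan-leukocyte marker PTPRC, the T cell markers CD3D and CD3E and the macrophage marker CD163 were listed at 0. LYZ, lysozyme, was an exception at 392 FPKM, rank 217, and CD68, a lysosomal protein that many cells make, was at 32.7 FPKM, with 77.3% of its units in another gene. CD14, which hepatocytes also make, was at 6.20 FPKM. Of 18 erythroid markers, EPOR at 7.06 FPKM and EPO reached 1 FPKM, and HBB, HBG1 and HBG2 were listed at 0. Of 17 bile duct and progenitor markers, 11 reached 1 FPKM. KRT8 and KRT18, the keratins of all simple epithelia, hepatocytes included, were at 1073 and 794 FPKM. EPCAM was at 71.7 FPKM, SOX9 at 53.3 FPKM and PROM1, or CD133, at 48.1 FPKM, all 3 markers of progenitor-like liver cells, while the bile duct keratin gene KRT7 was listed at 0.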

How the data were processed

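One column of a deposited table was used, that of the control library of Hep3B cells. Its values are FPKM per gene as the authors calculated them. The submitters' processing notes name hg19, the aligner STAR (2.5.0) and, for the values, Cufflinks and Cuffdiff (2.2.1). Settings, filters and use of strand were not stated in the sources used here. TRIzol was used for extraction and the Illumina TruSeq kit that keeps strand for messenger RNA libraries, per the labels' protocols. The 2 columns of the other libraries are not described.

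Of 19869 entries, 19310 were matched to a symbol by Ensembl identifier, 64 were named from GENCODE v29 and 495 remained unnamed. Values of the same symbol (10 entries) were added, which gave 19863 genes. A gene was counted as present at 1 FPKM or more. No test was made, since there is 1 library and no comparison. Depth was estimated from 64 of 79 weakly expressed genes with 1 transcript of at least 1000 bases, whose value lay within 25% of 1 fragment. The estimate was tested on simulated data only at depths near this one, where it returned the depth. Its search window was set for such depths and it was not run at a lower one. The test therefore could not show a depth far from the estimate. The 95% intervals (exact Poisson for a level, exact binomial for a share) use fragments estimated from the shortest coding transcript in GENCODE v29. They cover counting error only. An interval of a level errs on the wide side where the cells used a longer transcript and on the narrow side where they used a shorter one. For a share, the fragments of a family were pooled without regard to differences in length, so its interval may be too narrow. Sequence shared between genes was measured in units of 31 bases.

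The members and the 35 gene lists were chosen with earlier results of these data known. The lists hold 961 genes, of which 954 were in the table. Named were the 30 highest genes, tumour suppressors and members of the families of adult and other forms. In every other list the rule took the 6 highest members and those under 1 FPKM. Outside this rule, and after their values were seen, were named RACK1, TTR, TFR2, HFE, ASGR1, CCND1, CPS1, OTC, EGFR, MET, FGF19, KLB, HLA-C, HMGA2, IGF2BP1, IGF2BP2, IGF2BP3, LIN28B, MYC, MYCN, TERT, the genes with the GTTAAT core (LIPC, PROC, PLG, SERPINA6) and the members of gene clusters in the closing section. Some genes and families are not reported here. Of the families, 3 more were dropped after their values were seen, because the form entered as that of adult liver was not one (enolase, acetyl-CoA carboxylase) or because the genes are chains of 1 receptor (asialoglycoprotein receptor). Python 3.11.15, pandas 2.3.3 and SciPy 1.17.1 were used. Protein features, planned beside the promoter features, were not analysed here.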

Additional observations from a re-analysis of the deposited data

How the results depend on the processing

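Levels come from 1 library, so no spread between cultures is known, and near-copies, missing exons and failed estimates at 0 cannot be seen in gene values. No paired analysis was possible because each group has 1 library and no test was made. With a minimum of 2 FPKM, endothelial and stromal markers numbered 0 and erythroid markers 1, and the other 35 counts stayed within 1.5 times. At 0.5 FPKM all 37 did, and the values in TPM, without genes of shared sequence or with the highest entry per symbol moved none. The share of the 50 highest genes was 22.6% among protein-coding genes only and 17.6% without ribosomal protein genes, where hepatocyte products took 7.82%. With genes under 1 FPKM set to 0, the adult share was 0 for pyruvate kinase and glycogen synthase. As estimated fragments, that is FPKM multiplied by the shortest coding transcript, the share moves with those lengths by construction and says nothing of the library; it was 81.3% for the glucose transporter, 8.94% for methionine adenosyltransferase, 60.98% for glycogen phosphorylase, 21.5% for arginase, 34.8% for phosphofructokinase, 37.7% for the albumin family, 11.6% for glutathione transferase, 72.7% for the FGF receptor and 50.3% for the insulin and IGF1 receptors. The GTTAAT core was in 24% of hepatocyte product promoters at 0.5 FPKM or more and in 24.6% at 2 FPKM or more, both chosen after seeing the data. Protein features were not run.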

Other observations

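Genes that lie next to each other on a chromosome, in the order of RefSeq (GRCh38.p14), shared a level in some clusters and not in others. In the albumin cluster on chromosome 4, ALB at 3317 FPKM and AFP at 4055 FPKM were followed by AFM, the vitamin E carrier afamin, at 0.209 FPKM. In the cluster of APOA5, APOA4, APOC3 and APOA1 on chromosome 11, the first pair was under 1 FPKM, while APOC3, an inhibitor of lipoprotein lipase, was at 52.7 FPKM and APOA1 at 1461 FPKM. In the APOE cluster on chromosome 19, APOE was at 1389 FPKM and APOC1 at 672 FPKM. APOC4, next in order, was at 0.318 FPKM, with 83.0% of its units of 31 bases in another gene. APOC2, the activator of lipoprotein lipase, was at 42.4 FPKM, with 55.9% of its units in another gene. The levels were closer in the fibrinogen cluster. The fibrinogen genes on chromosome 4, FGB, FGA and FGG, were at 234, 128 and 148 FPKM. The ITIH cluster on chromosome 3 was low and not even, with ITIH1 at 1.68 FPKM and ITIH3 and ITIH4 at 0.0696 and 0.0544 FPKM. The 4 CYP3A genes on chromosome 7 lay between 0 and the 0.256 FPKM of CYP3A7.

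The 9 genes of the SERPINA cluster on chromosome 14 ranged from 0 for SERPINA9 and SERPINA12 to 1334 FPKM for SERPINA1, with SERPINA5, the protein C inhibitor, at 73.0 FPKM, SERPINA3 at 66.8 FPKM, SERPINA6, the cortisol carrier, at 21.9 FPKM and SERPINA4 at 10.4 FPKM. Of the 7 alcohol dehydrogenases on chromosome 4, ADH5, which removes formaldehyde in all cells, was at 164 FPKM, ADH6 at 8.39 FPKM and ADH1C at 1.60 FPKM, and the other 4 were under 1 FPKM.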
